A study of Mus musculus with 4 samples.

Results

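The 972 regions described here carried called peaks of acetylated histone H4 in HDAC3 KO macrophages, both after lipopolysaccharide (LPS) and without treatment, and in LPS-treated wt macrophages, while no peak was called there in untreated wt macrophages. They were chosen by merging overlapping or touching peaks of the 4 deposited peak lists and keeping the regions with those calls, out of 62481 merged regions in all (1.56%). The cells were bone marrow-derived macrophages of C57BL/6 mice on day 7 of differentiation, and the mark was mapped by chromatin immunoprecipitation with an antibody to acetylated H4 followed by sequencing. The HDAC3 KO cells were HDAC3 -/- and were either treated with 100 ng/ml LPS for 4 h or left untreated. The cells called wt were HDAC3 +/-, that is heterozygous, and were treated or left untreated in the same way. All were grown in medium conditioned by L929 cells, a source of the growth factor that turns marrow precursors into macrophages. Each of the 4 groups had 1 library. The differences below are therefore differences between libraries, with no replicate check and no test across conditions. The sources used here do not give the number of animals behind a library, their age or the way the allele was removed.

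Acetylation of the tails of histone H4 loosens the hold of nucleosomes on DNA and marks active promoters and enhancers. HDAC3 is a histone deacetylase that works inside the NCoR and SMRT corepressor complexes, which sequence-specific repressors bring to regulatory DNA. LPS, from the outer membrane of Gram-negative bacteria, signals through a Toll-like receptor of macrophages and switches on inflammatory genes within hours. The comparison asks which of the regions called with LPS in both genotypes, but not in untreated wt, are called already in resting cells that lack HDAC3.

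The lists held 45589 peaks in LPS-treated HDAC3 KO, 41956 in untreated HDAC3 KO, 39550 in LPS-treated wt and 48706 in untreated wt. The lowest score in every list was about 50, and this score was deposited by the authors on a scale that is not stated. Peak scores move with sequencing depth, which is unknown for these libraries, so a score is read here only against other peaks of the same list, and scores of different lists printed side by side are not compared. A region without an untreated wt peak is a region where none was called, and acetylation below the calling limit cannot be seen in these files. The files give coordinates on the mm9 build without gene names, and no gene annotation or sequence of that build was used here, so regions are named by position and no sequence is printed. For the same reason neither the Hdac3 locus nor the macrophage marker genes were looked up as a check of the labels.

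The 972 regions were 9.63% (exact 95% interval 9.06 to 10.2%) of the 10096 regions called in LPS-treated wt but not in untreated wt. They were 11.9% (11.2 to 12.6%) of the 8177 regions called in untreated HDAC3 KO but not in untreated wt. Over all merged regions, 16.2% had the first of these calls and 13.1% the second, and both were part of the rule. The rule also asked for an LPS-treated HDAC3 KO peak. A region gained in wt with an untreated HDAC3 KO peak but no LPS-treated HDAC3 KO peak is therefore not in the 9.63%. The share of 9.63% depends on the score limit: it was 2.57% with a score at or above the list's median in the 3 libraries with a peak, which left 63 regions, and 15.1% when every list was cut to its top 20000 peaks by score. The intervals cover counting error only, and neighbouring regions are not independent. Of the 5073 regions called in both LPS-treated libraries but not in untreated wt, 19.2% (18.1 to 20.3%) had an untreated HDAC3 KO peak, and the other 4101 had none and are named LPS-only regions here.

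The opposite call was commoner. In 2156 regions both LPS-treated libraries and untreated wt had a peak while untreated HDAC3 KO had none, so the 972 regions made up 31.1% (29.5 to 32.7%) of the 3128 regions with both LPS-treated peaks and 1 of the 2 untreated peaks. The untreated wt list had the most peaks of the 4 and covered the fewest bases, 35.4 Mb. When each list was cut to its 20000 highest-scored peaks, 889 of 1794 such regions (49.6%, 47.2 to 51.9%) had the untreated HDAC3 KO peak. This limit changes the number of peaks and the lowest score together, and their parts in the shift were not tested.

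The untreated HDAC3 KO peaks in the 972 regions were mostly low in their list. In LPS-treated HDAC3 KO the top score of a region had a median of 172 (interquartile range 99.4 to 355, lowest 50.3, highest 3100). In untreated HDAC3 KO it had a median of 79.0 (61.2 to 115, lowest 50.0, highest 615), and in LPS-treated wt a median of 104 (69.0 to 193, lowest 50.1, highest 2961). Ranked within each list, the median region stood at the 55.3rd percentile in LPS-treated HDAC3 KO, the 30.4th in untreated HDAC3 KO and the 39.1th in LPS-treated wt. The median region called in all 4 libraries stood at 75.5 with LPS and 74.2 without it in HDAC3 KO, and 71.5 in LPS-treated wt. Regions called in both HDAC3 KO libraries only had a median percentile of 31.0 in untreated HDAC3 KO, close to the 972 regions. In regions with the opposite untreated call the untreated wt median was 35.6. A low rank of the untreated peak was thus not particular to the 972 regions. The score reached its list's median in 556 of the 972 regions in LPS-treated HDAC3 KO (57.2%), in 208 in untreated HDAC3 KO (21.4%) and in 334 in LPS-treated wt (34.4%). The libraries took part in the choice of the regions, so these ranks are a description of what was chosen.

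**Figure D1:**
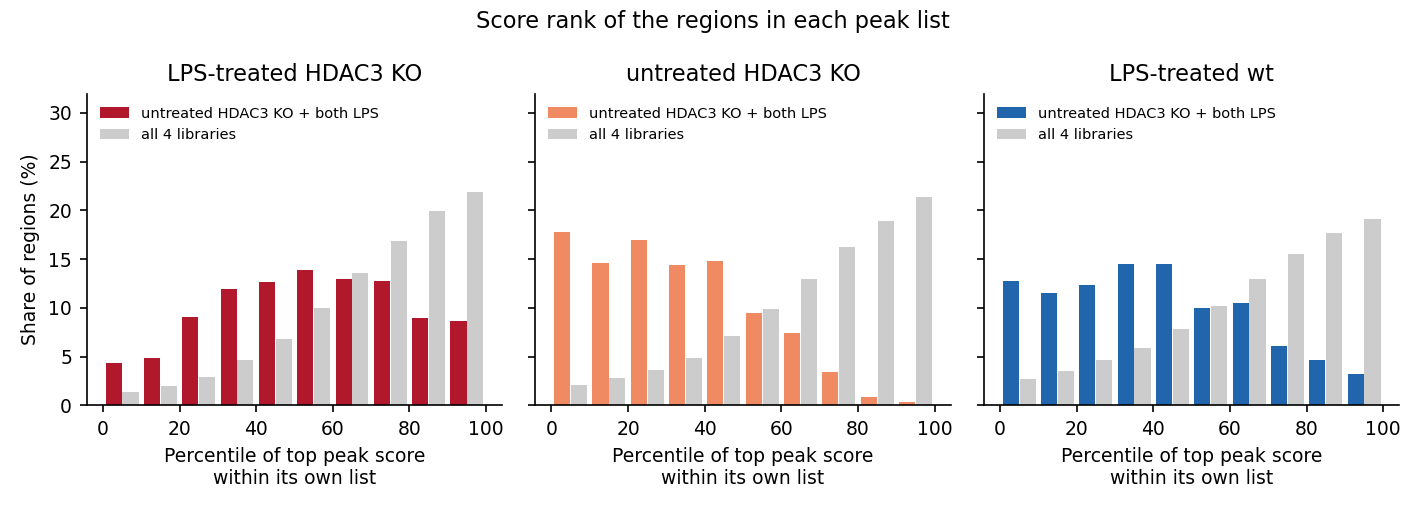
Share of regions (vertical axis, percent) by the percentile of the region's top peak score within its own list (horizontal axis, steps of 10), for LPS-treated HDAC3 KO, untreated HDAC3 KO and LPS-treated wt. Coloured bars are the 972 regions with peaks in untreated HDAC3 KO and both LPS-treated libraries, and grey bars are the 17827 regions called in all 4 libraries: 17.8% of the 972 regions fell in the lowest step of the untreated HDAC3 KO list, against 2.05% of the regions called in all 4.

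Even where the score after LPS was high, most untreated HDAC3 KO peaks ranked in the lower part of their list. In 159 of the 972 regions (16.4%) the LPS-treated HDAC3 KO score was at least 500, with a median of 819. Such a score was found in 38.7% of regions called in all 4 libraries and 12.2% of those with the opposite untreated call. It was found in 8.3% of LPS-only regions and 3.1% of those called in both HDAC3 KO libraries only. These 159 regions had a median score of 86.4 in untreated HDAC3 KO and a median of 276 in LPS-treated wt, and their median width was 2199 bp. In the other 813 regions the medians were 143 with LPS and 78.2 without it in HDAC3 KO, and 93.6 in LPS-treated wt, with a median width of 1033 bp. The 159 regions were thus wider than the rest, and their untreated HDAC3 KO median of 86.4 was still below that list's median of 122. The untreated HDAC3 KO score was at or above its list's median in 30.2% (23.2 to 38.0%) of the 159 regions, against 91.8% (91.1 to 92.4%) of the 6907 regions called in all 4 libraries with an LPS-treated HDAC3 KO score of at least 500. Among the other 813 regions it was 19.7% (17.0 to 22.6%), so high-ranked untreated peaks were commoner where the score after LPS was high. A wider region can hold more peaks, and the highest score was used, so the part of width in this was not tested. The calls of these libraries also chose the 972 regions and the regions called in all 4. Across the 972 regions the Spearman correlation of scores was 0.11 between LPS-treated and untreated HDAC3 KO, 0.01 between untreated HDAC3 KO and LPS-treated wt, and 0.46 between LPS-treated HDAC3 KO and LPS-treated wt. Over the 17827 regions called in all 4 libraries the correlation was 0.58 between LPS-treated and untreated HDAC3 KO, 0.52 between untreated HDAC3 KO and LPS-treated wt, and 0.77 between the LPS-treated pair. These are correlations across regions, which share their libraries, and the 972 regions span a narrower range of untreated HDAC3 KO scores.

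At the edge of the rule, scores ran down to the calling limit. The lowest untreated HDAC3 KO scores among the 972 regions were 50.02, 50.08 and 50.10, and 132 regions (13.6%) had an untreated HDAC3 KO score under 55. In 207 regions (21.3%) the top peak scored under 55 in at least 1 of the 3 lists. Just outside the rule, 169 of the 17827 regions called in all 4 libraries had an untreated wt score under 55, down to 50.04. Their median scores were 167 in LPS-treated HDAC3 KO, 86.0 in untreated HDAC3 KO, 121 in LPS-treated wt and 52.5 in untreated wt. In each of the first 3 lists these medians lay within the interquartile range of the 972 regions. The top peak of each of the 3 lists scored at least 100 in 155 of the 972 regions (15.9%, 13.7 to 18.4%), and at least 200 in 14 (1.44%, 0.79 to 2.41%). Over the lists with a call, these shares were 21.5 and 2.83% in regions with the opposite untreated call. They were 19.6 and 3.42% in regions called in both HDAC3 KO libraries only, and 39.9 and 15.3% in LPS-only regions. Both of these classes have a call in fewer lists, so their shares are not on the same terms.

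The 10 highest-ranked regions that lay more than 5 kb from any untreated wt peak, out of 357 such regions, were taken by their weakest rank, the lowest of the 3 percentiles. The first was chromosome 18, 5805347 to 5806563, with scores of 1006 with LPS and 286 without it in HDAC3 KO, and 446 in LPS-treated wt. The second was chromosome 11, 54834201 to 54838121, a region of 3921 bp with scores of 3100 with LPS and 276 without it in HDAC3 KO, and 1907 in LPS-treated wt. Here the LPS-treated peaks spanned 3921 bp in HDAC3 KO and 3883 bp in wt, and the untreated HDAC3 KO peaks 2283 bp. The nearest untreated wt peak was 13.1 kb away from the first region and 7.55 kb from the second.

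The other 8 lay on 6 chromosomes. At chromosome 19, 47164457 to 47165840, the region scored 515 with LPS and 223 without it in HDAC3 KO, and 449 in LPS-treated wt. That at chromosome 16, 11062599 to 11064518, scored 787 with LPS and 210 without it in HDAC3 KO, and 320 in LPS-treated wt. The region at chromosome 1, 135243605 to 135246854, scored 312 with LPS and 181 without it in HDAC3 KO, and 351 in LPS-treated wt. These 3 stood 21.6, 47.5 and 32.1 kb from the nearest untreated wt peak, so no untreated wt call was near them. A pair of regions lay close together on chromosome 17. The one at 50308332 to 50311608 scored 953 with LPS and 177 without it in HDAC3 KO, and 287 in LPS-treated wt. The one at 50296108 to 50298863 scored 1179 with LPS and 160 without it in HDAC3 KO, and 1230 in LPS-treated wt. In the second of the pair peaks covered 2688 bp in LPS-treated HDAC3 KO, 2231 bp in untreated HDAC3 KO and 2650 bp in LPS-treated wt, so the resting peaks without HDAC3 spanned most of the region.

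Another chromosome 17 region, 22217919 to 22218667, was the most isolated of the 10, at 83.9 kb from an untreated wt peak, and scored 360 with LPS and 169 without it in HDAC3 KO, and 217 in LPS-treated wt. The region at chromosome 7, 132681978 to 132685737, scored 920 with LPS and 167 without it in HDAC3 KO, and 290 in LPS-treated wt. The last of the 10, chromosome 6, 97171118 to 97172875, scored 200 with LPS and 216 without it in HDAC3 KO, and 392 in LPS-treated wt. There the LPS-treated HDAC3 KO peak covered 904 bp and the untreated HDAC3 KO peaks 1475 bp, against 1617 bp in LPS-treated wt.

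**Figure D2:**
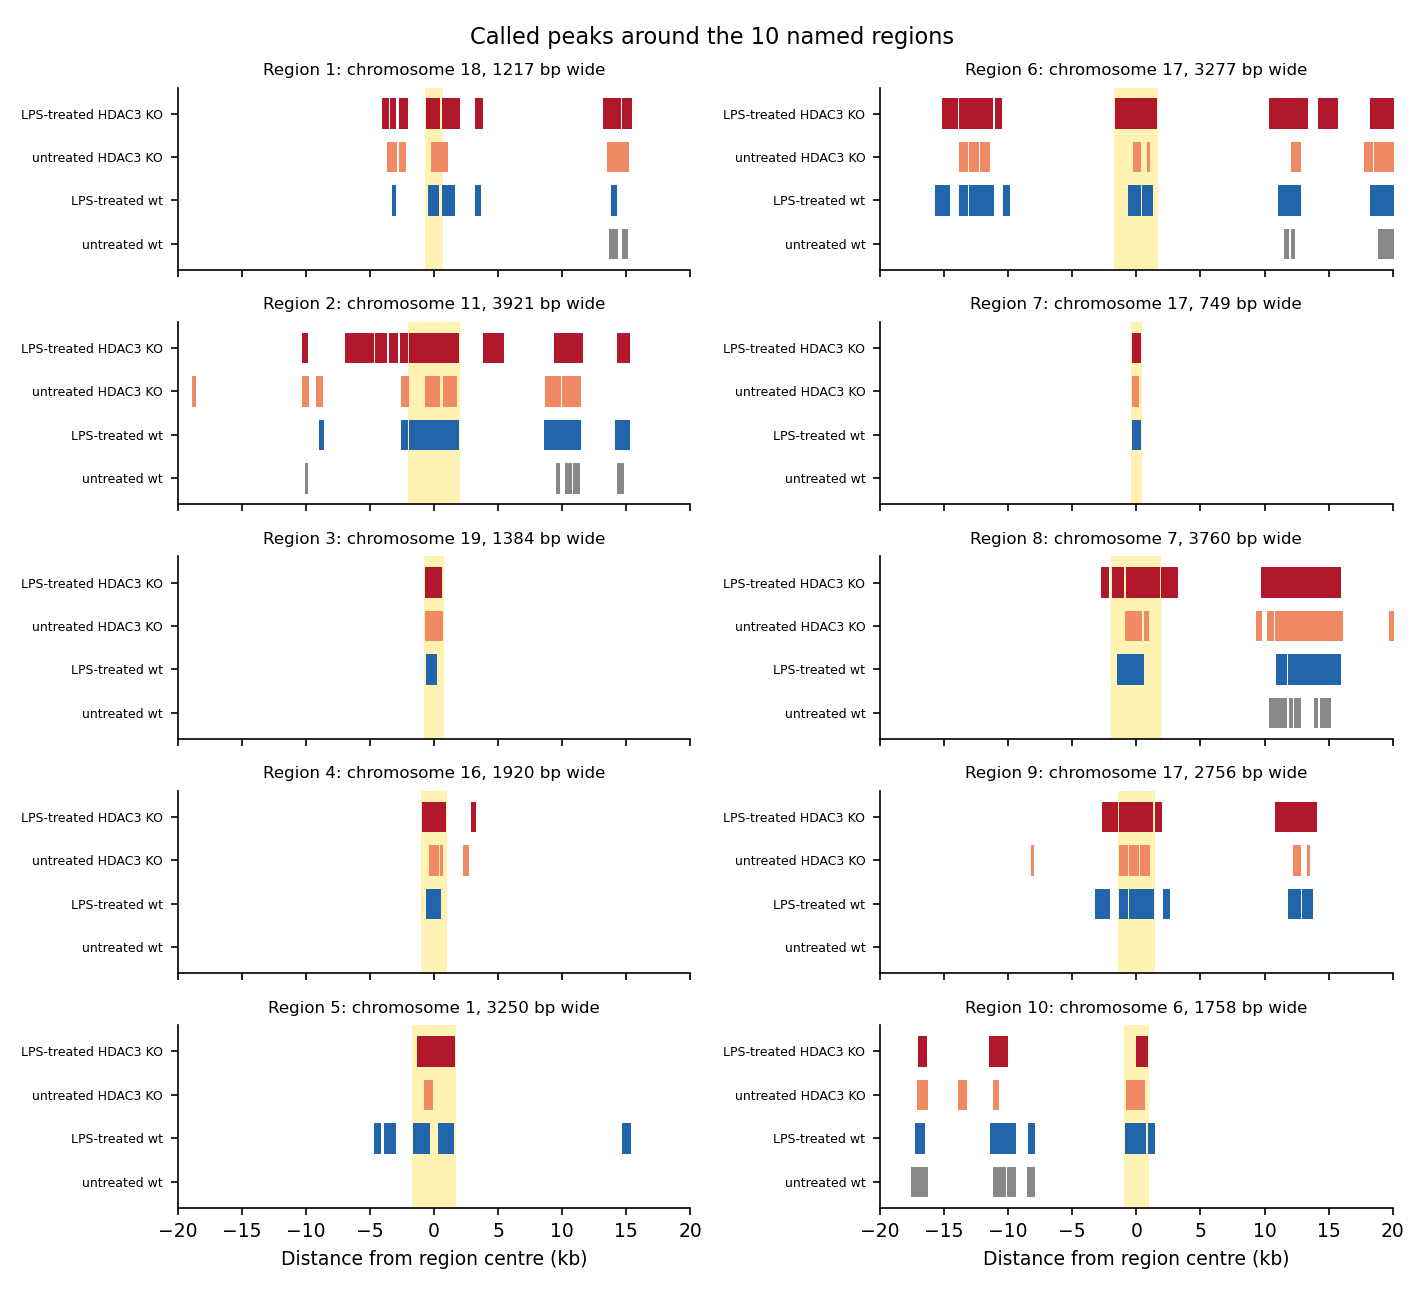
Called peaks (coloured bars) in LPS-treated HDAC3 KO, untreated HDAC3 KO, LPS-treated wt and untreated wt around the 10 named regions, as distance from the region's centre in kb, with the merged region shaded. None of the 10 has an untreated wt peak in the shaded part, and in 5 of the panels untreated wt peaks lie within 20 kb.

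Regions that stood out on single measures were chosen after their values were seen. With no limit on the distance, the highest weakest rank belonged to chromosome 11, 109271930 to 109278932, a region of 7003 bp that lay 155 bp from an untreated wt peak and scored 2493 with LPS and 552 without it in HDAC3 KO, and 704 in LPS-treated wt. The highest untreated HDAC3 KO score was 615, at chromosome 11, 108083722 to 108084620, where LPS-treated HDAC3 KO scored 314 and LPS-treated wt 105, and the nearest untreated wt peak was 120 kb away. The widest region, chromosome 6, 91649001 to 91657377, scored 2017 in LPS-treated HDAC3 KO, 53.0 in untreated HDAC3 KO, close to that list's minimum, and 2961 in LPS-treated wt. Its 2 untreated HDAC3 KO peaks covered 986 of its 8377 bp. The untreated HDAC3 KO call was thus high in its list in some of the 972 regions and at the calling limit in others.

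Since regions were made by merging overlapping or touching peaks, the rule largely fixes that their peaks share bases. At least 1 base lay in a peak of all 3 libraries in 929 of the 972 regions (95.6%), with a median of 430 shared bases where there were any, and in the remaining 43 the peaks were joined only as a chain. Among regions called in all 4 libraries 99.1% (99.0 to 99.2%) had a base in those 3 lists. Untreated HDAC3 KO peaks shared a base with an LPS-treated HDAC3 KO peak in 962 regions and with an LPS-treated wt peak in 942. They lay wholly inside LPS-treated HDAC3 KO peaks in 505 regions (52.0%, 48.8 to 55.1%) and wholly inside LPS-treated wt peaks in 305 (31.4%, 28.5 to 34.4%). In regions called in all 4 libraries they lay wholly inside LPS-treated HDAC3 KO peaks in 34.1% (33.4 to 34.8%) and wholly inside LPS-treated wt peaks in 21.5% (20.9 to 22.1%).

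The resting peaks without HDAC3 also covered fewer bases per region. Called bases per region had a median of 1015 with LPS and 561 without it in HDAC3 KO, and 677 in LPS-treated wt, in regions with a median width of 1130.5 bp. In regions called in both HDAC3 KO libraries only, the untreated HDAC3 KO median was 562.5, close to that of the 972 regions. Over whole lists the median width of a single peak, another measure than summed bases, was 836 bp in LPS-treated HDAC3 KO and 691 bp in untreated HDAC3 KO. It was 722 bp in LPS-treated wt and 590.0 bp in untreated wt. Untreated HDAC3 KO covered fewer bases than LPS-treated HDAC3 KO in 804 of the 972 regions (82.7%), where 66.2% of all 23198 regions with both peaks did. It covered fewer than LPS-treated wt in 606 (62.3%, 59.2 to 65.4%), where 49.7% of all 20074 regions with both peaks did. The median ratio of called bases, untreated HDAC3 KO over LPS-treated HDAC3 KO, was 0.62 in the 972 regions and 0.87 in regions called in all 4 libraries. The rule used the calls of these libraries and asked for none in untreated wt. These lengths too are therefore a description of what was chosen.

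After LPS, both genotypes had a peak in each of the 972 regions by the rule, and the rule did not ask which was larger. It did not treat the genotypes alike, however: HDAC3 KO had to be called with and without LPS, wt with LPS only. The share and the ratio given here for the 972 regions are therefore not separate from how the regions were chosen. LPS-treated HDAC3 KO covered more bases than LPS-treated wt in 734 of the 972 regions (75.5%, 72.7 to 78.2%). Across all 25056 regions with both LPS-treated peaks the share was 69.7%, so most of this share was common to the pair of libraries. The LPS-treated HDAC3 KO list covered 50.4 Mb in all and the LPS-treated wt list 37.4 Mb. The share was 62.4% (60.9 to 63.9%) in the 4101 LPS-only regions and 57.7% (55.6 to 59.8%) in the 2156 regions with the opposite untreated call. In regions called in all 4 libraries it was 72.5% (71.8 to 73.1%). The median ratio of called bases, LPS-treated HDAC3 KO over LPS-treated wt, was 1.28 in the 972 regions, 1.12 in LPS-only regions and 1.06 in those with the opposite untreated call, against 1.14 over all regions with both peaks.

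Split by LPS-treated wt score, the share with more HDAC3 KO bases was above that of the LPS-only regions in both parts. That score belongs to the compared pair itself, so the lower shares above the list's median are not separate from the split. The classes differ by rule in the untreated HDAC3 KO call, and the cause of the difference was not tested. With an LPS-treated wt score at or above its list's median, HDAC3 KO covered more bases in 68.0% (62.7 to 72.9%) of 334 regions, against 46.8% (44.3 to 49.2%) of 1589 LPS-only regions. Below that median HDAC3 KO covered more bases in 79.5% (76.1 to 82.5%) of 638 of the 972 regions, against 72.3% (70.5 to 74.0%) of 2512 LPS-only regions. These are shares over regions of 2 libraries, no test of the condition can be made from them, and whether the HDAC3 KO libraries shared a preparation is unknown.

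**Figure D3:**
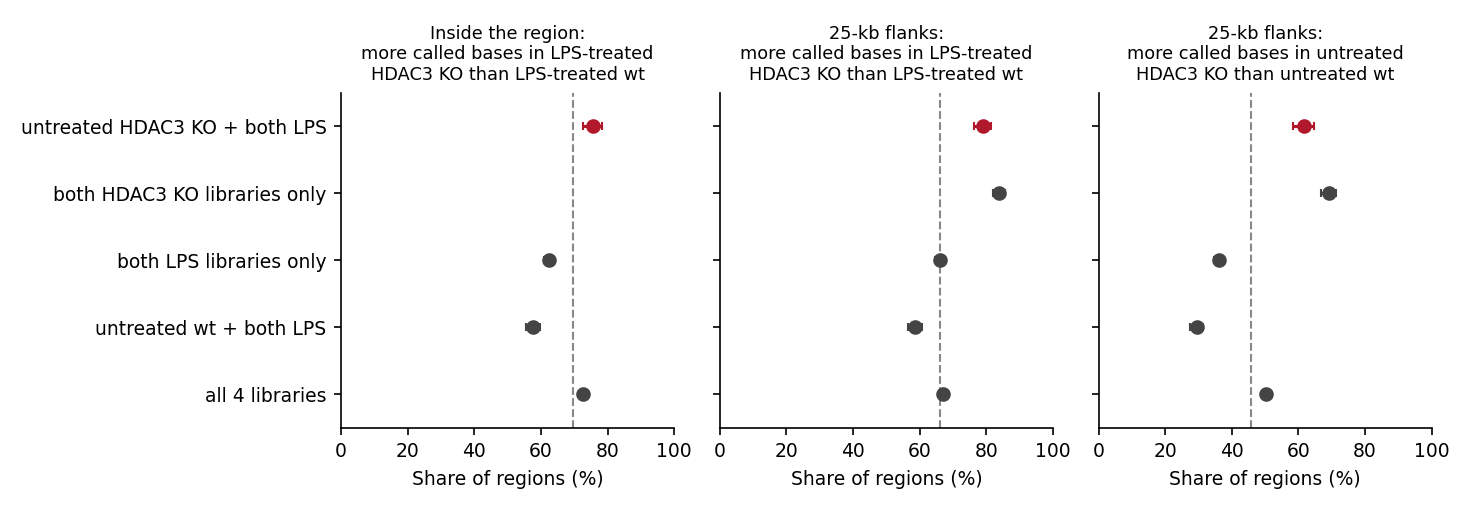
Share of regions (horizontal axis, percent, with exact 95% binomial intervals) in which HDAC3 KO had more called bases than wt, inside the region with LPS (left), in the 25 kb on either side with LPS (middle) and in the same flanks without treatment (right), by call pattern. Dashed lines give the share over all regions with both LPS-treated peaks (69.7%, left) and over all merged regions (66.0 and 45.9%), and the left panel has no point for regions called in both HDAC3 KO libraries only, since they lack an LPS-treated wt peak; the 972 regions lie at 75.5, 78.9 and 61.5%.

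The surrounding DNA was examined in the 25 kb on either side of each region, with the region itself left out. Others of the 972 regions that fell in these flanks were counted. By the rule they have untreated HDAC3 KO bases and no untreated wt bases, so that part of the flanks was set by the choice. Around the 972 regions, untreated HDAC3 KO had more called bases than untreated wt in 598 (61.5%, 58.4 to 64.6%) and the same number in 69, where 45.9% of all merged regions had more. The mean called length was 7315 bp in LPS-treated HDAC3 KO, 4264 bp in untreated HDAC3 KO, 4916 bp in LPS-treated wt and 3440 bp in untreated wt. The ratio of means, untreated HDAC3 KO over untreated wt, was 1.24 around the 972 regions and 1.10 around all merged regions, while the total called length of the lists had a ratio of 1.03. It was 1.40 around regions called in both HDAC3 KO libraries only, 1.12 around regions called in all 4 libraries, 0.99 around LPS-only regions and 0.87 around those with the opposite untreated call. The flanks thus leaned the same way as the calls that chose the regions, and since they come from the same pair of libraries they are no separate evidence.

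With LPS, HDAC3 KO had more called bases than wt in the flanks of 767 of the 972 regions (78.9%, 76.2 to 81.4%), where 66.0% of all merged regions had more. The share was 83.8% around regions called in both HDAC3 KO libraries only, 66.1% around LPS-only regions and 58.6% around those with the opposite untreated call. LPS also went with more called flank bases within wt. The ratio of means, LPS-treated over untreated wt, was 1.43 around the 972 regions, 2.10 around LPS-only regions and 1.13 around all merged regions. For the total called length of the lists it was 1.06. Regions of the same class in these flanks have LPS-treated wt bases and no untreated wt bases by rule. The ratios around the 972 regions and the LPS-only regions were thus partly set by the choice. The ratio of mean flank bases, LPS-treated HDAC3 KO over LPS-treated wt, was 1.49 around the 972 regions and 1.43 around all merged regions. It was 1.91 around regions called in both HDAC3 KO libraries only, 1.26 around LPS-only regions and 1.21 around those with the opposite untreated call. The 972 regions thus differed little from all merged regions and lay between these other classes.

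**Figure D4:**
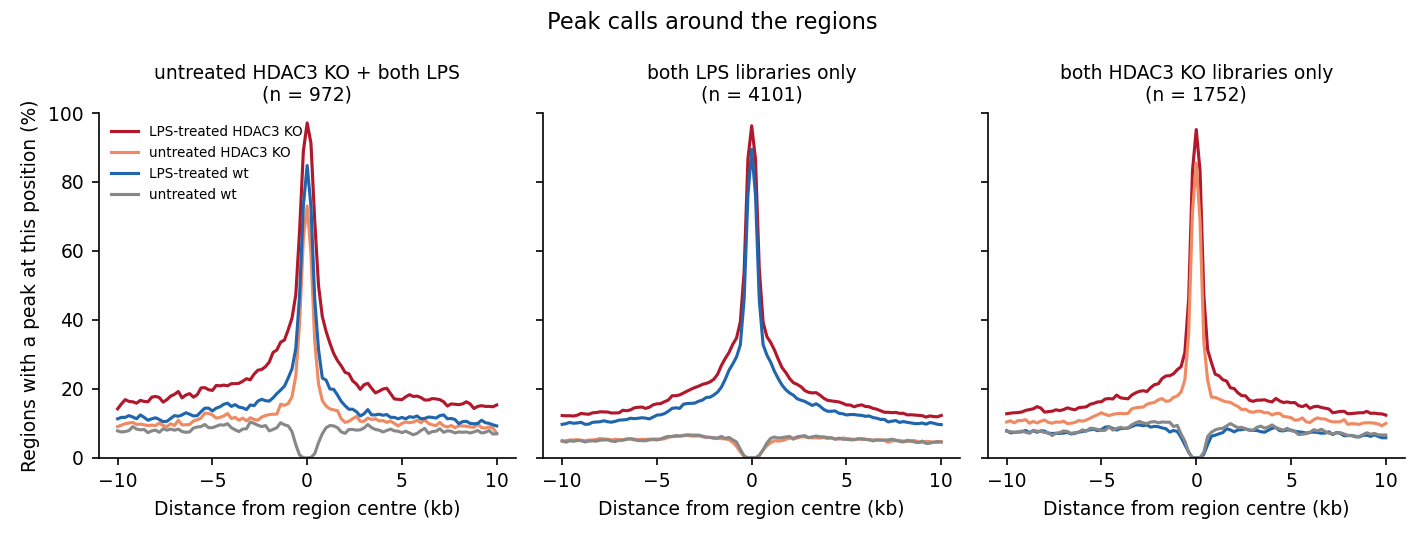
Share of regions with a called peak (vertical axis, percent) at each distance from the region's centre (horizontal axis, kb) in LPS-treated HDAC3 KO, untreated HDAC3 KO, LPS-treated wt and untreated wt, for the 972 regions, the 4101 regions called in both LPS-treated libraries only and the 1752 called in both HDAC3 KO libraries only. At the centre of the 972 regions 97.1% had an LPS-treated HDAC3 KO peak, 73.0% an untreated HDAC3 KO peak, 84.8% an LPS-treated wt peak and 0% an untreated wt peak, as the rule requires of the last; at 5 kb the shares were 18.2% in LPS-treated HDAC3 KO, 11.2% in untreated HDAC3 KO, 12.7% in LPS-treated wt and 8.02% in untreated wt.

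Many of the 972 regions lay beside acetylation that was already called in untreated wt. The nearest untreated wt peak was a median of 2604 bp away, with an interquartile range of 486 to 10050 bp. It was within 1 kb of 326 regions (33.5%, 30.6 to 36.6%) and within 5 kb of 615 (63.3%, 60.2 to 66.3%), although with each list cut to its 20000 highest-scored peaks the share within 5 kb was 39.8%. The medians were 3240 bp for regions called in both HDAC3 KO libraries only and 6240 bp for LPS-only regions, of which 58.4% (56.1 to 60.8%) and 46.0% (44.5 to 47.6%) had an untreated wt peak within 5 kb. The interval of the first of these classes overlapped that of the 972 regions. No share over all regions lacking an untreated wt peak is given here, nor the shares of these classes with the 20000 highest-scored peaks. The closest untreated wt peaks were 4, 5 and 6 bp from the region, next to the edge of a rule that counts touching peaks as merged. The untreated wt peaks within 1 kb had a median rank at the 46.0th percentile of their list.

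At the other end, 141 of the 972 regions (14.5%, 12.4 to 16.9%) were more than 20 kb from an untreated wt peak, against 25.8% of LPS-only regions. The farthest was chromosome X, 5976531 to 5977181, at 522 kb, with scores of 113 with LPS and 114 without it in HDAC3 KO, and 91.7 in LPS-treated wt. Isolated regions did not have lower median scores in HDAC3 KO. The median untreated HDAC3 KO score was 80.8 within 1 kb of an untreated wt peak, 76.7 at 1 to 5 kb, 77.7 at 5 to 20 kb and 86.9 beyond 20 kb. The median LPS-treated HDAC3 KO score was 141 within 1 kb, 197 at 1 to 5 kb, 180.0 at 5 to 20 kb and 222 beyond 20 kb. The share with more called bases in LPS-treated HDAC3 KO than in LPS-treated wt was 73.0, 76.8, 76.9 and 76.6% in these 4 classes, so the 4 shares lay within the counting intervals of one another.

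**Figure D5:**
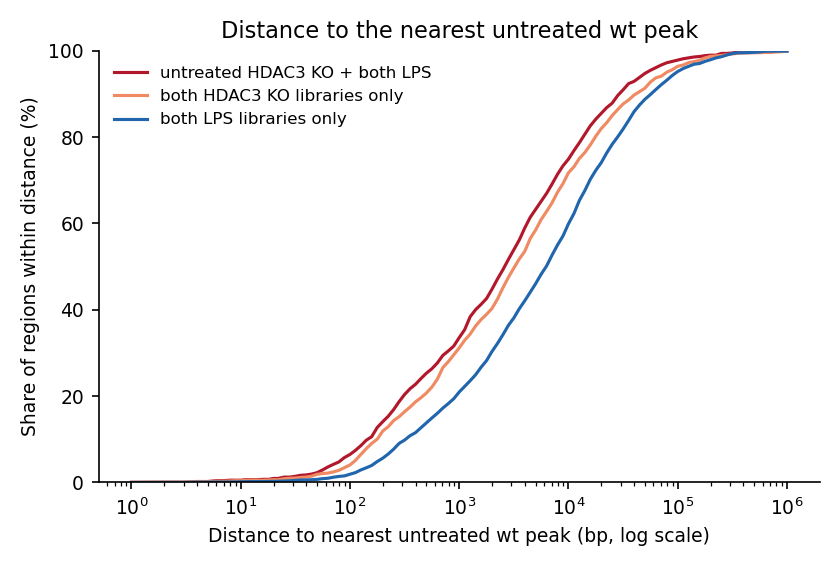
Cumulative share of regions (vertical axis, percent) within a given distance of the nearest untreated wt peak (horizontal axis, bp, log scale), for the 972 regions, the 1752 regions called in both HDAC3 KO libraries only and the 4101 called in both LPS-treated libraries only. Within 1 kb the curves stand at 33.5, 31.2 and 20.9%.

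The nearest other merged region of any kind was a median of 172.5 bp away. In 323 of the 972 regions (33.2%, 30.3 to 36.3%) that neighbour was called in all 4 libraries, against 25.4% (23.4 to 27.5%) for regions called in both HDAC3 KO libraries only and 20.0% (18.8 to 21.3%) for LPS-only regions. In 104 (10.7%) it was an LPS-only region, in 59 (6.07%) another of the 972 regions, and in 36 (3.70%) a region called in both HDAC3 KO libraries only. Over all merged regions the nearest neighbour was called in all 4 libraries in 28.3% (28.0 to 28.7%), and such regions are the largest class, with 17827 of 62481. The share was 25.5% (23.6 to 27.4%) for regions with the opposite untreated call and 37.1% (36.4 to 37.8%) for regions called in all 4 themselves, so the share of the 972 regions lay between those classes.

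Some of the 972 regions lay in runs. With gaps of up to 50 kb allowed, 708 were alone, 164 lay in pairs and 100 in 30 runs of 3 or more. No such count was made for other classes or for all merged regions, so runs are not shown to be particular to the 972. Of the 30 runs, 4 held no untreated wt peak within their span. In 3 runs there were 5 of the 972 regions. In the one at chromosome 18, 5801877 to 5844425, which holds the first of the named regions, peaks covered 10.5 kb in LPS-treated HDAC3 KO, 5.02 kb in untreated HDAC3 KO, 3.98 kb in LPS-treated wt and 1.15 kb in untreated wt. In this run untreated HDAC3 KO covered more than LPS-treated wt. In the run at chromosome 19, 11394665 to 11450829, peaks covered 23.8 kb in LPS-treated HDAC3 KO, 8.65 kb in untreated HDAC3 KO, 15.9 kb in LPS-treated wt and 2.76 kb in untreated wt. In the run at chromosome 4, 3587347 to 3698871, they covered 16.1 kb in LPS-treated HDAC3 KO, 6.94 kb in untreated HDAC3 KO, 13.6 kb in LPS-treated wt and 2.31 kb in untreated wt. In these other 2 the LPS-treated wt peaks covered more than those of untreated HDAC3 KO.

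The 972 regions lay on every autosome and on the X chromosome, from 26 on chromosome 16 to 74 on chromosome 4, with 1 on the separate sequence labelled 4_random. Chromosome 4 held 7.61% of them (6.02 to 9.46%), against 6.09% of all merged regions, and chromosome 16 held 2.67% (1.75 to 3.89%), against 3.76%. The X chromosome held 37 (3.81%, 2.69 to 5.21%), against 2.29% of all merged regions. The X share was 3.43% (2.70 to 4.29%) among regions with the opposite untreated call, 2.51% among LPS-only regions and 1.60% among those called in both HDAC3 KO libraries only. The X share of the 972 regions and that of the regions with the opposite untreated call thus overlapped in their counting intervals. Every chromosome was looked at, and the intervals are not adjusted for that.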

How the data were processed

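H4 acetylation was measured by chromatin immunoprecipitation and sequencing in 4 libraries, 1 per group. Per the file headers, MACS called peaks in each library against an input. The submitters' processing notes name Bowtie and mm9. The sources used here give neither versions nor settings. The deposited score of each peak is the authors' own, with no stated scale.

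From the lists, peaks were merged with bedtools 2.31.1 at gap 0, and regions were grouped by the lists with a peak, as labelled. Where a list had several peaks in a region, the highest score and the summed length were used. Percentiles are ranks within a list. Shares have exact (Clopper-Pearson) 95% intervals from scipy 1.17.1. Depth is unknown, so no interval for depth is given. Coordinates count from 1. Tables were handled with pandas 2.3.3 and numpy 2.4.6 in Python 3.11.15, and figures drawn with matplotlib 3.10.9. The merging was tested on simulated lists.

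Regions were named by the rule given with them, plus extremes chosen after values were seen. The regions, comparisons and lists were chosen with earlier results of these data known. Gene tables on GRCm38, another build, were not used, so the planned promoter shares, motif shares, gene lists and marker genes were not run.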

Additional observations from a re-analysis of the deposited data

How the results depend on the processing

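Each group had 1 library, so no library could be left out. No paired analysis was possible because each group had 1 library. Of 7 alternative settings, requiring a base common to the 3 peaks and keeping autosomes only left each of the 6 results within its counting interval, and the number of regions within 1.5 times. The last 3 of the 6 were chosen after seeing the data. Read depth is unknown, so calls missing for lack of depth cannot be told apart from regions without the mark.

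The number of regions, 972 as reported, was 615 with peaks within 500 bp merged, 63 with a score at or above the list's median in the 3 libraries with a peak, 577 with that limit in all 4 lists and 646 with no untreated wt peak within 1000 bp. Their share of the regions gained in wt, 9.63% as reported, was 10.3, 2.57, 12.2 and 8.17% in these 4 settings and 15.1% with the 20000 highest-scored peaks. The share with an untreated wt peak within 5 kb, 63.3% as reported, was 42.9% with merging over 500 bp, 45.2% with the median limit in all 4 lists, 39.8% with the 20000 highest-scored peaks and 44.7% with the 1000 bp clearance, which removes such regions by construction.

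The share among regions with both LPS-treated peaks and 1 untreated peak, 31.1% as reported, was 27.0% with merging over 500 bp, 20.3% with the median limit in the 3 libraries, 32.9% with that limit in all 4 lists, 49.6% with the 20000 highest-scored peaks and 27.9% with the clearance. The share with more called bases in LPS-treated HDAC3 KO than in LPS-treated wt stayed between 74.1 and 76.8% in all 7 settings, where all regions with both peaks gave 69.7 to 70.0%. The share with more flank bases in untreated HDAC3 KO than in untreated wt, 61.5% as reported, was 55.9% with merging over 500 bp (all merged regions 42.1%), 74.6% with the median limit in the 3 libraries (47.7%), 53.0% with that limit in all 4 lists (41.1%) and 55.7% with the 20000 highest-scored peaks (45.1%). Beyond these constructions the cause of each shift was not tested.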

Other observations

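Of the 30 runs of 3 or more of the 972 regions, 4 had no untreated wt peak within their span, and the densest of them was at chromosome 9, 58117753 to 58122992 (mm9). There 3 regions lay within 5.24 kb, and peaks covered 5.05 kb in LPS-treated HDAC3 KO, 3.45 kb in untreated HDAC3 KO and 3.58 kb in LPS-treated wt. A run of 3 at chromosome 7, 4030976 to 4040570, had peaks over 6.09 kb in LPS-treated HDAC3 KO, 3.28 kb in untreated HDAC3 KO and 3.21 kb in LPS-treated wt. In the run at chromosome 8, 125508111 to 125553237, peaks covered 9.76 kb with LPS and 2.89 kb without it in HDAC3 KO, and 2.73 kb in LPS-treated wt. In the run at chromosome 4, 59420812 to 59433343, they covered 2.46 kb with LPS and 1.64 kb without it in HDAC3 KO, and 2.33 kb in LPS-treated wt, so untreated HDAC3 KO was called over less DNA than LPS-treated wt there. These 4 runs were picked after their values were seen, and the rule that chose the regions fixes that HDAC3 KO is called there without treatment.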
